A study of Mus musculus with 32 samples.

Results

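Thymocytes of p53+/+ mice were compared after irradiation and without it, across all genes on the array. The comparison held 4 of the 32 arrays of the series, chosen by their titles: 1 array at 2 h and 1 array at 4 h after irradiation, against 2 untreated arrays. The irradiated p53+/+ samples were thymocytes taken 2 h or 4 h after mice received 5 Gy of gamma radiation from a caesium source, and the untreated p53+/+ samples were taken at 0 h. Thymocytes without p53 (p53-/-; 1 array at 2 h, 1 at 4 h and 2 untreated) entered 1 contrast, the difference between the 2 responses. The other 24 arrays, from mice carrying proline (P72) or arginine (R72) at codon 72 of p53, entered the fit for its estimate of spread. All mice were 6 weeks old and of strain C57Bl/6, and each sample pooled the purified thymocytes of 2 mice, labelled as 1 male and 1 female. The p-values measure a change against 1 spread per gene pooled over the 12 groups of the fit, in which 24 of 32 arrays were P72 or R72. Nothing in the labels tells whether the untreated p53+/+ samples were 2 separate pools, so the spread between those 2 may be technical.

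p53 is a transcription factor that DNA breaks stabilise, by way of the kinase ATM and release from its inhibitor Mdm2. It binds paired sites near genes for cell death, cell cycle arrest, DNA repair and metabolism, and it also feeds back on itself through Mdm2 and related genes. Cortical thymocytes, which carry both CD4 and CD8, are among the most radiation-sensitive cells of the mouse, and their death after irradiation is known to need p53, with Bbc3 (Puma) and Pmaip1 (Noxa) among its effectors.

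A level is the log2 of a gene's signal over the 75th percentile signal of its array, so that 0 is the signal of that percentile, and a change is a difference of such levels, irradiated minus untreated. A gene is said to rise or fall when limma gave an adjusted p under 0.05 for the mean of the 2 h and 4 h arrays minus the mean of the untreated arrays, fitted with all 32 arrays. The lone arrays at 2 h and at 4 h were assumed to vary like the other groups. An exact permutation of 2 against 2 arrays cannot give a p under 0.333, so for a single gene that test cannot pass 0.05 on these arrays alone.

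Some of the promoters of known p53 targets that rose hold a recognisable p53 element, shown here because these genes lead the results that follow. RefSeq windows (build GRCm38.p6) from 250 bases before to 50 after the start were searched on both strands for 2 adjacent 10-base p53 sites without a spacer, with the central C and G of each site and the A or T bases between them kept, and at most 3 mismatches elsewhere. Capitals mark the element, and each line is read 5′ to 3′ on the strand of the gene.
Cdkn1a, chr17:29090923-29090952 (+), 1 mismatch: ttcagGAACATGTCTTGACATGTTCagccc
Gtse1, chr15:85859940-85859969 (+), 1 mismatch: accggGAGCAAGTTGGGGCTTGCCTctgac
Zfp365, chr10:67912701-67912730 (-), 2 mismatches: tagcaAGACTAGGCTGGGCAAGACTggcac
Bbc3, chr7:16309481-16309510 (+), 3 mismatches: cccgaCTGCAAGCCCCGACTTGTCCccagc
Aen, chr7:78895932-78895961 (+), 3 mismatches: aagccGGGCTTGTCCGGGCAAGGAGcttcc
Wrap53, chr11:69580279-69580308 (-), 3 mismatches: cgccaTAACAAGTAAGGGCAAGTCCttccg
Of the listed p53 targets that rose, 38 had a window and 6 of these (15.8%) held such an element, against 3 of 41 (7.32%) of the other listed targets and 182 of 27025 (0.673%) of all genes with a window. The lists were drawn up from known p53 targets, so the shares describe those lists, and a window without a match says only that these letters are not in it.

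The arrays differed in ways that bear on the results. Xist, the RNA that silences 1 X chromosome in females, was at 5.52 at 2 h and 5.53 at 4 h, against -0.87 and -1.44 untreated, and the Y-linked Ddx3y was at -6.81 at 2 h and -7.67 at 4 h, against 2.05 and 2.08 untreated. The irradiated samples therefore stood on the female side and the untreated samples on the male side, although all were labelled as pools of both sexes, and sex and irradiation cannot be told apart within these 4 arrays. With Xist as a covariate, which the other 28 arrays help to estimate, 4111 of the 4808 calls described below remained.

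H60, a ligand of the NK receptor NKG2D that is known to vary between mouse strains, stood apart in another way. It was at 1.31 at 2 h and 1.37 at 4 h, against -6.48 and -8.01 untreated. The irradiated arrays lay within the range of the 24 P72 and R72 arrays (-0.1 to 2.08), treated or not, and the untreated arrays lay far below it, with 1 of them inside the range of the p53-/- arrays (-8.6 to -7.51) and 1 above that range. Ltk, St6galnac2 and Tnfrsf14 also had untreated p53+/+ arrays more than 2-fold below every P72 and R72 array and irradiated arrays inside that range. In p53-/- thymocytes St6galnac2 was at 0.29 at 2 h and 0.51 at 4 h, against 0.45 and 0.35 untreated, inside the P72 and R72 range (0.11 to 2.79) and far from untreated p53+/+. The large rises of H60, Ltk and St6galnac2 given below carry this fact, and the part of mouse line in them was not tested. Slc15a2, a peptide transporter, was at -2.66 at 2 h and 1.90 at 4 h, against -3.27 and -2.88 untreated, so that the 2 irradiated arrays differed from each other as well.

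The untreated arrays correlated at 0.992 across genes, the irradiated arrays at 0.98, and pairs of 1 irradiated and 1 untreated array at 0.965 to 0.981. The signal at the 75th percentile was 481 fluorescence units at 2 h and 341 at 4 h, against 679 and 493 untreated, and 56.5% and 68.3% of probes were well above background, against 54.1% and 64.3%. The 2 h array, the 4 h array and 1 untreated array shared a slide, and the second untreated array was on another. Among defining thymocyte markers, Cd8a, Cd8b1, Rag1 and Dntt lay above the 99th percentile of measured genes on all 4 arrays. None of these nor of Cd4, Cd3e, Rag2 and Ptcra passed the test. Cd4, which marks helper and immature thymocytes, was at 0.06 at 2 h and 0.19 at 4 h, against 0.13 and -0.10 untreated.

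Irradiation went with change in 23.4% of the genes tested: of 20532 genes, 2787 rose (13.6%) and 2021 fell (9.84%). These shares are the background for each count of list members that follows. Large changes were mostly rises, with 1779 genes up at least 2-fold (8.66%) and 192 down (0.935%). The number rests on the 4 h array more than on any other. It was 1196 genes without the 4 h array and 5953 without the 2 h array, and 2849 and 2472 without the first and the second untreated array. The split between directions depends on scaling: rises made up 58% of calls here, 47.5% in the authors' table and 17.9% of 7914 calls when arrays were centred on their median. The median change of all genes was 0.10 in the scale used here and -0.29 with median centring, and list medians below are read against the value for all genes. With the 4 arrays fitted alone no gene passed in limma, with 4165 genes at an unadjusted p under 0.05.

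The hours differed in extent. Among 15108 genes well above background on all 4 arrays, 543 (3.59%) were at least 2-fold higher at 2 h than the untreated mean and 162 (1.07%) at least 2-fold lower. At 4 h these were 1465 of 15104 (9.7%) and 347 (2.3%). Over all genes measured, whatever their background, 1678 were at least 2-fold higher (8.17%) and 447 lower (2.18%) at 2 h, and 4790 higher (23.3%) and 456 lower (2.22%) at 4 h. These are values of single arrays with no test. The direct contrast of 4 h minus 2 h, in which each side is 1 array, had 267 genes higher (1.3%) and 60 lower (0.292%) at 4 h. Higher genes made up 81.7% of these, 64.5% with quantile normalization, 65.6% in the authors' table and 18.2% with median centring.

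**Figure D1:**
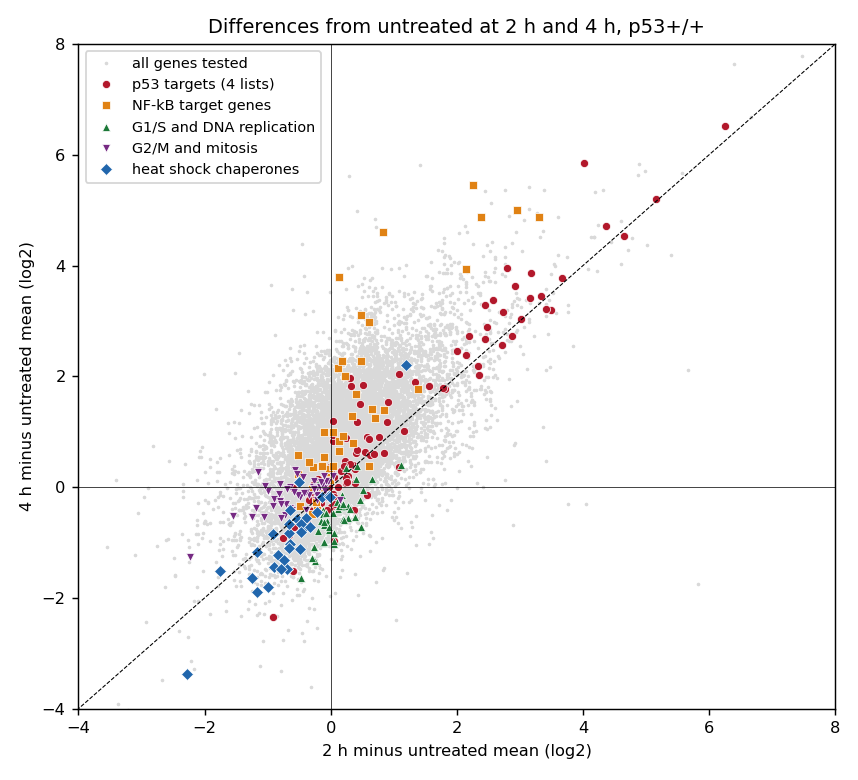
Each point is a gene tested in p53+/+ thymocytes, with its log2 difference from the untreated mean at 2 h on the x axis and at 4 h on the y axis, and colours mark gene lists as keyed (12 genes lie outside the axes). p53 targets lie along the diagonal, such as Phlda3 at 5.16 and 5.20, and inflammatory genes lie above it, such as Il1b at 2.26 and 5.45.

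Of 96 measured p53 targets in 4 lists, 47 rose, 8 fell and 41 did not pass, against 13.6% of all genes that rose and 9.84% that fell. Of the 47, 39 were well above background on all 4 arrays and 40 rose by more than in p53-/- thymocytes, as did 3.18% of all genes tested and 620 of the 2787 that rose. Both irradiated arrays lay above both untreated arrays for 46 of the 47, as for 33% of all genes, which is nearly fixed by their having passed the test. The median share of the 4 h difference already present at 2 h was 85.7%, with 30 of 47 at or above 80%. It was 85.7% to 97.4% in 3 of the lists and 74.2% in the list of metabolic and other targets, where 5 of 15 were at or above 80%. For all 2787 genes that rose that median was 62.1%, with 866 at or above 80%.

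Genes of cell death included the firmest rises. In the apoptosis list 15 of 28 measured members rose and 1 fell, with a median change of 0.82 (0.56 at 2 h and 1.06 at 4 h). Phlda3, which restrains the survival kinase Akt, was at 5.39 at 2 h and 5.44 at 4 h, against 0.23 and 0.24 untreated. The irradiated arrays lay far above the untreated ones and close to each other, a 36.3-fold rise (5.18 ± 0.14 log2, SE; adjusted p = 3.93e-17), the smallest p of any gene named here. Bbc3 (Puma), a BH3-only protein that triggers the mitochondrial death pathway, was at 6.46 at 2 h and 6.72 at 4 h, against 3.33 and 3.28 untreated. Both irradiated arrays lay above both untreated ones, and the rise was 9.77-fold (3.29 ± 0.12; adjusted p = 4.77e-15).

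Pmaip1 (Noxa), a second BH3-only protein, was at 3.08 at 2 h and 3.19 at 4 h, against -0.70 and -0.48 untreated. The groups did not overlap and the 2 h and 4 h arrays were alike, with a 13.2-fold rise (3.73 ± 0.25; adjusted p = 4.04e-10). Bax, which forms the pore in the outer mitochondrial membrane, was at 4.18 at 2 h and 4.41 at 4 h, against 1.78 and 1.69 untreated. It was again high on both irradiated arrays, by 5.89-fold (2.56 ± 0.15; adjusted p = 2.48e-11). Aen, an exonuclease that degrades DNA in dying cells, was at 4.29 at 2 h and 3.99 at 4 h, against 0.78 and 0.82 untreated, and Ei24, a protein of the endoplasmic reticulum, was at 3.94 at 2 h and 4.35 at 4 h, against 1.39 and 1.53 untreated. Both genes separated the groups, by 3.35 ± 0.14 and 2.69 ± 0.13 log2 (adjusted p = 4.03e-14 and 9.25e-13).

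Fas, the death receptor, was at 4.97 at 2 h and 5.06 at 4 h, against 4.34 and 4.52 untreated. The groups did not overlap but lay close together, a 1.5-fold rise (0.58 ± 0.13; adjusted p = 0.00257) that no longer passed with median centring. The member that fell was Bid, the BH3-only link from death receptors to mitochondria, singled out after its value was seen, with a change of -1.05 ± 0.14 (adjusted p = 2.24e-05). Among the 12 members that did not pass were Casp8, the caspase that death receptors activate, with a change of -0.11 ± 0.14 (adjusted p = 0.597), Bcl2l1, which encodes the survival protein Bcl-xL, with -0.19 ± 0.18 (adjusted p = 0.458), and Bmf, another BH3-only gene, with -0.76 ± 0.29 (adjusted p = 0.059). A dimmer probe of Bcl2l1 had the opposite sign and passed (0.59 ± 0.21; adjusted p = 0.0452), so the probes of this gene disagree. The others (Siva1, Casp6, Trp53i11, Dapk1, Tnfrsf23, Trp63, Trp73, Triap1 and Rnf144b) had adjusted p from 0.07 to 0.507. None of 5 measured genes in the list of pro-survival Bcl2 family members passed by its brightest probe, with a median of 0.17 that turned to -0.22 with median centring.

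**Figure D2:**
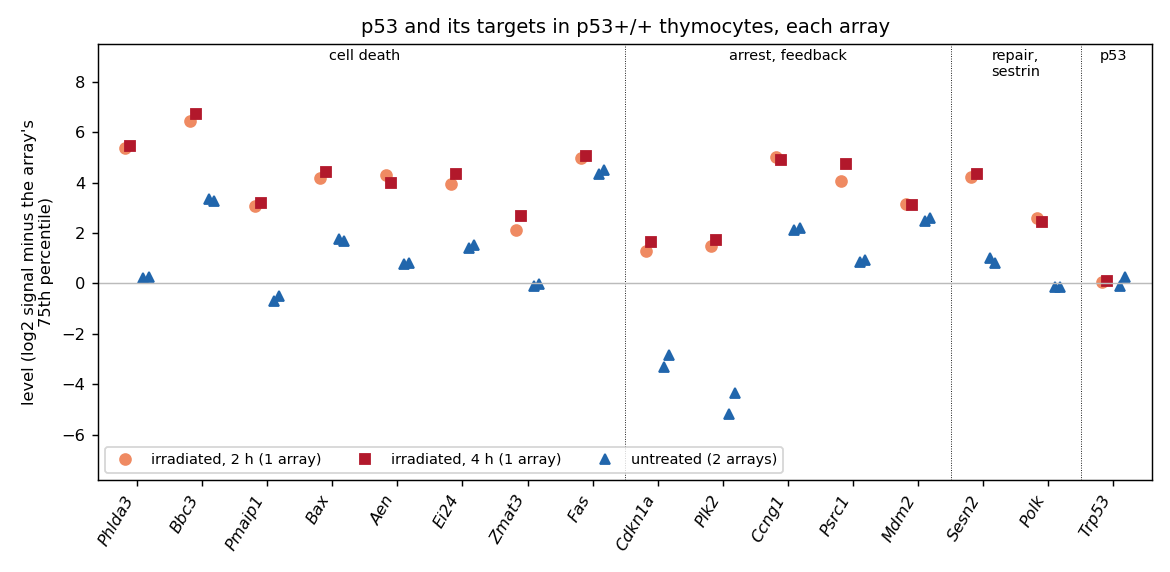
The level of 16 genes on each p53+/+ array (y axis, log2 signal minus the 75th percentile), with circles for 2 h, squares for 4 h and triangles for the 2 untreated arrays. Circles and squares sit above the triangles for every gene shown but Trp53, by as little as 0.58 for Fas and as much as 6.38 for Plk2.

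Cell cycle arrest and feedback genes rose in 12 of 24 measured cases and fell in 2, with a median change of 0.49. Cdkn1a (p21), the inhibitor of cyclin-dependent kinases, was at 1.29 at 2 h and 1.63 at 4 h, against -3.33 and -2.84 untreated. It was low in untreated thymocytes and 23.3 times higher after irradiation (4.54 ± 0.33; adjusted p = 1.09e-09). Plk2, a polo-like kinase, was at 1.48 at 2 h and 1.74 at 4 h, against -5.20 and -4.34 untreated. It had the largest change of the list (6.38 ± 0.41; adjusted p = 1.3e-10), from levels at or near background on the untreated arrays, of which 1 was well above it. Both irradiated arrays also exceeded every P72 and R72 array by more than 2-fold.

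Ccng1 (cyclin G1), a cofactor of Mdm2 activity, was at 5.03 at 2 h and 4.88 at 4 h, against 2.13 and 2.18 untreated. The 2 h array was slightly above the 4 h array and both were clear of the untreated ones (2.80 ± 0.15; adjusted p = 5.95e-12). Psrc1, a microtubule-binding protein, was at 4.06 at 2 h and 4.75 at 4 h, against 0.84 and 0.92 untreated (3.52 ± 0.17; adjusted p = 6.02e-13), and Gtse1, which shuttles p53 out of the nucleus, was at 0.22 at 2 h and 0.26 at 4 h, against -2.95 and -2.62 untreated (3.03 ± 0.22; adjusted p = 1.06e-09). Both carried the same separation of groups, as did Zfp365, a zinc finger protein that stabilises fragile sites. Zfp365 was not well above background on either untreated array and was at least 8.69-fold higher after irradiation (adjusted p = 1.84e-10). Such a bound sets the irradiated mean against the dimmest signal that counted as measurable on each untreated array, or the gene's own reading where that was brighter.

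Mdm2, the ubiquitin ligase that removes p53, was at 3.15 at 2 h and 3.12 at 4 h, against 2.47 and 2.59 untreated. The groups did not overlap, but the rise of 1.52-fold (0.60 ± 0.16; adjusted p = 0.0102) was modest, and its adjusted p was above 0.05 without the 4 h array, without the first untreated array and with median centring. These values are of the brightest Mdm2 probe, and a dimmer one rose by 0.88 ± 0.14 (adjusted p = 0.000156). Trp53 itself was at 0.04 at 2 h and 0.09 at 4 h, against -0.11 and 0.26 untreated, with overlapping groups and a change of -0.01 ± 0.24 (adjusted p = 0.982). In p53-/- thymocytes its probe read -0.48 at 2 h and -0.45 at 4 h, against -0.25 and -0.09 untreated. The labels do not say which part of the gene is deleted, so this does not check them. The 2 members that fell, singled out after their values were seen, were Sfn, a checkpoint protein, with a change of -0.50 ± 0.12 (adjusted p = 0.00458), and Cop1, a ubiquitin ligase of p53, with -0.32 ± 0.09 (adjusted p = 0.0149). Members that did not pass included Mdm4, the partner of Mdm2, with 0.34 ± 0.18 (adjusted p = 0.17), Gadd45a, a stress sensor, with 0.38 ± 0.16 (adjusted p = 0.0814), and Btg2, an antiproliferative cofactor of mRNA decay that was already at 6.00 at 2 h and 5.94 at 4 h, against 5.68 and 5.78 untreated. Btg1, Plk3, Ccng2, Rchy1, Trim24 and Zfp385a had adjusted p from 0.0839 to 0.926. A dimmer probe passed for Mdm4 (0.81 ± 0.18; adjusted p = 0.00252), whose other 3 dimmer probes did not, and for Zfp385a (0.69 ± 0.20; adjusted p = 0.0183).

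DNA repair genes and sestrins moved in both directions: 5 of 14 rose and 3 fell, with a median of 0.17 that became -0.22 with median centring. Sesn2, a sestrin that restrains the growth kinase mTORC1, was at 4.24 at 2 h and 4.36 at 4 h, against 1.00 and 0.82 untreated. This was a 10.5-fold difference between clearly separate groups (3.39 ± 0.18; adjusted p = 6.37e-12). Another Sesn2 probe rose by 1.97 ± 0.26 (adjusted p = 1.7e-05), so the size is uncertain. Polk, a DNA polymerase that copies past lesions, was at 2.58 at 2 h and 2.44 at 4 h, against -0.14 and -0.13 untreated (2.64 ± 0.15; adjusted p = 1.81e-11). Ercc5 (XPG), a nuclease of nucleotide excision repair, was at 1.25 at 2 h and 1.51 at 4 h, against -0.30 and -0.32 untreated (1.69 ± 0.08; adjusted p = 1.41e-12). Both were alike at 2 h and 4 h. Mgmt, which removes alkyl groups from guanine, was later, with -3.25 at 2 h and -1.92 at 4 h, against -3.94 and -3.58 untreated. Its 4 h array exceeded its 2 h array by 1.33 ± 0.24 (adjusted p = 0.00468), and the mean change was 1.17 ± 0.17 (adjusted p = 3.98e-05).

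The 3 that fell were Ung, Xpc and, singled out after its value was seen, Pcna, the replication clamp (-0.46 ± 0.14; adjusted p = 0.0221). Xpc, which recognises damage for nucleotide excision repair, was at 2.12 at 2 h and 1.99 at 4 h, against 2.40 and 2.39 untreated (-0.34 ± 0.09; adjusted p = 0.00881). Ung is described with nucleotide synthesis below. Ddb2, also a damage sensor, had a change of 0.23 ± 0.10 (adjusted p = 0.108) and Rrm2b, a ribonucleotide reductase subunit, one of -0.29 ± 0.24 (adjusted p = 0.378), neither passing. Sesn3, Polh, Fancc and Rev3l did not pass either, with adjusted p from 0.0919 to 0.964, though a dimmer probe of Rev3l did (0.65 ± 0.15; adjusted p = 0.00414).

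Metabolic and other p53 targets rose in 15 of 30 measured cases and fell in 2, with a median of 0.64. Lpin1, a phosphatidate phosphatase and coactivator of fatty acid oxidation, was at 2.39 at 2 h and 2.41 at 4 h, against 0.66 and 0.57 untreated (1.79 ± 0.10; adjusted p = 1.81e-11). Aldh4a1, a mitochondrial enzyme of proline breakdown, was at 2.35 at 2 h and 2.30 at 4 h, against 0.47 and 0.59 untreated (1.80 ± 0.10; adjusted p = 2.34e-11). Each had a narrow spread within groups and a change of about the same size. Dcxr, a reductase of sugars, was at 0.30 at 2 h and 1.15 at 4 h, against -2.11 and -2.17 untreated (2.86 ± 0.22; adjusted p = 2.73e-09), and Ak1 (adenylate kinase 1) was at -2.52 at 2 h and -1.37 at 4 h, against -5.41 and -5.24 untreated (3.38 ± 0.27; adjusted p = 5.44e-09). In these the 4 h array was the higher, by 0.85 ± 0.31 and 1.15 ± 0.38, which did not pass (adjusted p = 0.175 and 0.132). Other probes of Dcxr rose by 3.01 ± 0.25 and 0.60 ± 0.20 (adjusted p = 1.02e-08 and 0.0364), so its size is uncertain. Ptp4a3, a phosphatase, and Fuca1, a lysosomal fucosidase, rose by 2.26 ± 0.18 and 2.23 ± 0.18 (adjusted p = 7.3e-09 and 9.74e-09).

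Cpt1c, a brain-type relative of carnitine palmitoyltransferase 1, was at -3.56 at 2 h and -1.72 at 4 h, against -6.93 and -8.23 untreated. It was not well above background untreated and was at least 6.5-fold higher after irradiation (adjusted p = 2.87e-08). The members that fell, singled out after their values were seen, were Tnfaip8, an inhibitor of apoptosis, with a change of -0.84 ± 0.16 (adjusted p = 0.000898), and Prkab1, a subunit of the energy sensor AMPK, with -0.38 ± 0.11 (adjusted p = 0.0192). Tigar, a brake on glycolysis, had a change of -0.24 ± 0.25 (adjusted p = 0.509). Ddit4 (REDD1), an mTORC1 inhibitor, had a change of 0.51 ± 0.26 (adjusted p = 0.153) from a high untreated level, and neither passed. The other 11 that did not pass (Pank1, Gpx1, Ndrg1, Tap1, Prkab2, Def6, Ckap2, Ercc1, Thsd1, Dusp11 and Centd1) had adjusted p from 0.0724 to 0.799, and dimmer probes of Def6 and Dusp11 passed (0.92 ± 0.26 and -0.67 ± 0.13; adjusted p = 0.0166 and 0.00101).

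Outside these lists, the largest rises included several cell surface and signalling genes. Tnfsf4 (OX40 ligand), a costimulator of the TNF family, was at 0.81 at 2 h and 1.11 at 4 h, against -6.89 and -6.44 untreated. It was not well above background on the untreated arrays, was clearly so on both irradiated ones, and was at least 79.2-fold higher (adjusted p = 2.09e-12). Its log2 change was 7.63 in the fit, 4.27 with normexp and 4.74 in the authors' table. Robo3, an axon guidance receptor, was at -0.66 at 2 h and 0.38 at 4 h, against -4.85 and -5.12 untreated (4.85 ± 0.25; adjusted p = 4.18e-12). Dglucy, the mitochondrial D-glutamate cyclase, was at 3.01 at 2 h and 4.14 at 4 h, against -1.27 and -1.09 untreated (4.75 ± 0.17; adjusted p = 4.6e-15). Both separated the groups, and for Dglucy the 4 h array was also higher than the 2 h array (1.13 ± 0.24; adjusted p = 0.0171). Robo3 was well above background on 1 of the 2 untreated arrays, and its change was as low as 2.83 over the alternative settings.

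Cd80, the ligand of CD28 on antigen-presenting cells, was at -2.47 at 2 h and -1.21 at 4 h, against -6.31 and -5.84 untreated, and Mybpc2, a myosin-binding protein of fast muscle, was at -1.21 at 2 h and -0.83 at 4 h, against -5.72 and -4.95 untreated. Their changes were 4.24 ± 0.48 and 4.32 ± 0.42 (adjusted p = 1.61e-06 and 1.39e-07). Each was well above background on 1 of the 2 untreated arrays, so the sizes rest on dim untreated signal. Over the alternative settings the changes were as low as 1.72 for Cd80 and 2.03 for Mybpc2. Zfp750, a zinc finger factor known in epidermis, was at least 9.59-fold higher (adjusted p = 1.27e-06). By its brightest probe H60 was at least 103-fold higher (adjusted p = 7.05e-11), with a log2 change of 8.58 in the fit, 4.31 with normexp and 4.65 in the authors' table. Another H60 probe rose by 3.04 ± 0.42 (adjusted p = 2.63e-05), so the size is uncertain. Ltk, a receptor kinase, was at least 8.7-fold higher (adjusted p = 0.00064), and St6galnac2, a sialyltransferase, had a change of 4.43 ± 0.36 (adjusted p = 1.05e-08). For these 3 the untreated arrays stood apart from the P72 and R72 arrays as described above. Other probes of St6galnac2 rose by 2.82 ± 0.51 and 2.87 ± 0.34 (adjusted p = 0.000546 and 2.8e-06), so its size is uncertain as well. Speer7-ps1, a pseudogene, was at least 4.45-fold higher (adjusted p = 0.0075). It lost its call without the 4 h array, without the second untreated array and in the authors' table, and the other 14 of the 15 largest rises, counted without genes named only by a clone or accession identifier, passed without each of the 4 arrays in turn.

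Many genes of inflammation were higher at 4 h than at 2 h. In the list of NF-kB targets 16 of 44 measured members rose and 3 fell, with a median of 0.50 (0.13 at 2 h and 0.88 at 4 h), and 10 were higher at 4 h than at 2 h, against 1.3% of all genes. Without the 4 h array 7 rose, and without the 2 h array 23. Those that rose had a median of 31% of their 4 h difference at 2 h. The 3 that fell, singled out after their values were seen, were Nfkbie, an inhibitor of NF-kB (-0.41 ± 0.13), the adaptor Traf2 (-0.31 ± 0.10) and the superoxide dismutase Sod2 (-0.38 ± 0.12), with adjusted p = 0.0208, 0.0312 and 0.0259.

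Il1b, the fever cytokine interleukin 1 beta, was at -1.39 at 2 h and 1.79 at 4 h, against -3.69 and -3.62 untreated. Each later array was higher, with the 4 h array 3.19 ± 0.58 above the 2 h array (adjusted p = 0.00548) and a mean change of 3.85 ± 0.41 (adjusted p = 6.39e-07). Ier3, an early response gene that modulates survival, was at -3.47 at 2 h and -0.98 at 4 h, against -6.06 and -5.64 untreated. It followed the same course, 2.49 ± 0.35 between the hours (adjusted p = 0.00094) and 3.63 ± 0.25 in all (adjusted p = 4.48e-10). Map3k8 (Tpl2), a kinase upstream of ERK, was at -1.98 at 2 h and -1.58 at 4 h, against -3.38 and -3.33 untreated (1.58 ± 0.27; adjusted p = 0.000255), with no call between the hours (adjusted p = 0.654).

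Chemokines, the attractants of leukocytes, rose in 9 of 31 measured cases and fell in none, with a median of 0.69 (0.10 at 2 h and 1.52 at 4 h). Without the 4 h array 3 rose. Ccl2, which attracts monocytes, was at -1.62 at 2 h and 0.43 at 4 h, against -4.72 and -4.42 untreated (3.98 ± 0.41; adjusted p = 3.13e-07). Ccl7, its close relative, was at -2.51 at 2 h and -0.93 at 4 h, against -5.97 and -5.64 untreated (4.09 ± 0.47; adjusted p = 1.8e-06). These and Ccl3 (3.04 ± 0.43; adjusted p = 3.15e-05) were the 3 already above untreated on the 2 h array by the test. Cxcl1, which attracts neutrophils, was at -5.90 at 2 h and -2.12 at 4 h, against -6.95 and -6.50 untreated. The 4 h array alone was well above background, at least 6.47-fold above the 2 h array (adjusted p = 0.00551) and at least 2.53-fold above untreated in the mean of both hours (adjusted p = 0.000451). Ccl4 and Ccl9 rose by 1.12 ± 0.27 and 1.32 ± 0.33 (adjusted p = 0.00562 and 0.00689), and neither passed without the 4 h array.

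Inflammatory caspase and inflammasome genes rose in 7 of 17 cases, with a median of 0.77, and in 2 without the 4 h array. Casp4 (caspase-11), the sensor of intracellular lipopolysaccharide, was at 0.40 at 2 h and 0.99 at 4 h, against -1.02 and -1.27 untreated (1.84 ± 0.31; adjusted p = 0.000249). Casp1, which processes interleukin 1, was at -0.04 at 2 h and 0.05 at 4 h, against -0.81 and -0.73 untreated (0.77 ± 0.24; adjusted p = 0.0262). The caspases were alike at 2 h and 4 h, unlike Mefv (pyrin), at -2.85 at 2 h and -0.53 at 4 h, against -2.69 and -2.67 untreated, whose 4 h array was 2.31 ± 0.44 above its 2 h array (adjusted p = 0.00772) and whose change of 0.99 ± 0.31 (adjusted p = 0.0253) turned to -0.17 without the 4 h array. Toll-like receptors and related sensing genes rose in 7 of 20 cases, and in none without the 4 h array. Cd14, the lipopolysaccharide co-receptor, was at -1.86 at 2 h and 1.27 at 4 h, against -2.68 and -2.68 untreated, with the 4 h array 3.13 ± 0.55 above the 2 h array (adjusted p = 0.00399). Tlr2 and Tlr6, which pair to sense bacterial lipopeptides, rose by 0.75 ± 0.17 and 0.79 ± 0.19 (adjusted p = 0.0032 and 0.00599).

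Immediate early genes split: 11 of 32 rose and 6 fell, with a median of 0.31 that turned to -0.09 with median centring, and 4 rose and 2 fell without the 4 h array. Atf3, a stress-induced repressor, was at -2.04 at 2 h and 0.01 at 4 h, against -4.19 and -3.94 untreated (3.05 ± 0.28; adjusted p = 7.09e-08). Ccn1 (Cyr61), a matricellular protein, was at -3.27 at 2 h and -0.38 at 4 h, against -6.23 and -5.21 untreated (3.90 ± 0.36; adjusted p = 7.19e-08). Both were higher at each later hour, by 2.04 ± 0.40 and 2.89 ± 0.51 between 2 h and 4 h (adjusted p = 0.00886 and 0.00455). Fos, a subunit of AP-1, was at -2.15 at 2 h and -1.60 at 4 h, against -3.78 and -3.40 untreated (1.72 ± 0.30; adjusted p = 0.000306), and Csrnp1, a nuclear factor, was at 3.71 at 2 h and 4.10 at 4 h, against 4.56 and 4.54 untreated (-0.64 ± 0.13; adjusted p = 0.00145), one of the 6 lower after irradiation, though another probe of it went the other way without passing.

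Markers of neutrophils moved with these genes, and their part in the result was not tested. Of 19 measured neutrophil markers 12 rose and none fell, with a median of 1.32 (0.37 at 2 h and 2.28 at 4 h). None passed without the 4 h array and 17 without the 2 h array. Their summed signal, in multiples of the 75th percentile, was 43.8 at 2 h and 94.8 at 4 h, against 30.3 to 31.1 untreated. Clec4d, a lectin receptor of myeloid cells, was at -3.38 at 2 h and -0.38 at 4 h, against -4.05 and -3.92 untreated, and Trem1, an amplifying receptor of neutrophils, was at -7.02 at 2 h and -2.77 at 4 h, against -6.72 and -6.46 untreated. On both the 2 h array was near the untreated ones or below them, and the 4 h array stood above the 2 h array by 3.00 ± 0.67 log2 for Clec4d and at least 4.13-fold for Trem1 (adjusted p = 0.02 and 0.000103). Cxcr2, the neutrophil chemokine receptor, was at -4.80 at 2 h and -2.44 at 4 h, against -6.28 and -6.98 untreated and at least 3.3-fold higher in the mean (adjusted p = 0.000423). In bulk samples a change in the number of cells of a type and a change in RNA per cell cannot be told apart.

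Further genes stood apart on the 4 h array alone. Thbs1 (thrombospondin 1), an adhesive glycoprotein, was at -6.91 at 2 h and -1.59 at 4 h, against -6.83 and -7.58 untreated, at least 9.31-fold higher at 4 h than at 2 h (adjusted p = 0.0134). F3 (tissue factor), which starts coagulation, was at -5.36 at 2 h and -1.39 at 4 h, against -5.91 and -6.25 untreated, at least 10.7-fold higher at 4 h than at 2 h (adjusted p = 0.00759). Ifi202b, an interferon-inducible DNA sensor, was at -5.17 at 2 h and -0.32 at 4 h, against -4.34 and -5.08 untreated, at least 22.5-fold higher at 4 h than at 2 h (adjusted p = 0.0134). None of the 3 was well above background at 2 h. In the mean of both hours Thbs1 and F3, not well above background untreated either, were at least 2.14-fold and 3.91-fold higher (adjusted p = 0.00882 and 0.00111), and Ifi202b exceeded untreated by 1.97 ± 0.71 (adjusted p = 0.0478). Without the 4 h array none passed and the change of Ifi202b was -0.45. Myh7, Magix and Itgb2l were also higher at 4 h than 2 h, by at least 6.75-fold, 4.75-fold and 4.79-fold (adjusted p = 0.00206, 0.0169 and 0.00468). Levels of Rab6b varied without irradiation too, from -3.69 (R72) to 3.08 (P72) over the untreated P72 and R72 arrays. The part of mouse line in its values was not tested. Rab6b, a Golgi GTPase, was at -4.72 at 2 h and 2.37 at 4 h, against 2.78 and 2.96 untreated, so that the 2 h array alone was low, and its adjusted p of 0.0264 did not hold without the 2 h array or either untreated array.

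Interferon-stimulated genes, with Ifi202b among them, rose in 6 of 37 cases, near the 13.6% of all genes. Their median of 0.20 turned to -0.20 with median centring, and 2 passed without the 4 h array. Mx1, an antiviral GTPase, was at -1.62 at 2 h and -1.43 at 4 h, against -3.45 and -3.08 untreated (1.74 ± 0.24; adjusted p = 2.64e-05), and Gbp3, a guanylate-binding protein, was at 1.42 at 2 h and 1.12 at 4 h, against 0.11 and 0.20 untreated (1.12 ± 0.21; adjusted p = 0.000588). Neither differed between the hours beyond the spread (adjusted p = 0.844 and 0.66). The classical antiviral genes Isg15 and Ifit1, singled out after their values were seen, had changes of 0.36 ± 0.22 and 0.19 ± 0.25 (adjusted p = 0.234 and 0.604).

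**Figure D3:**
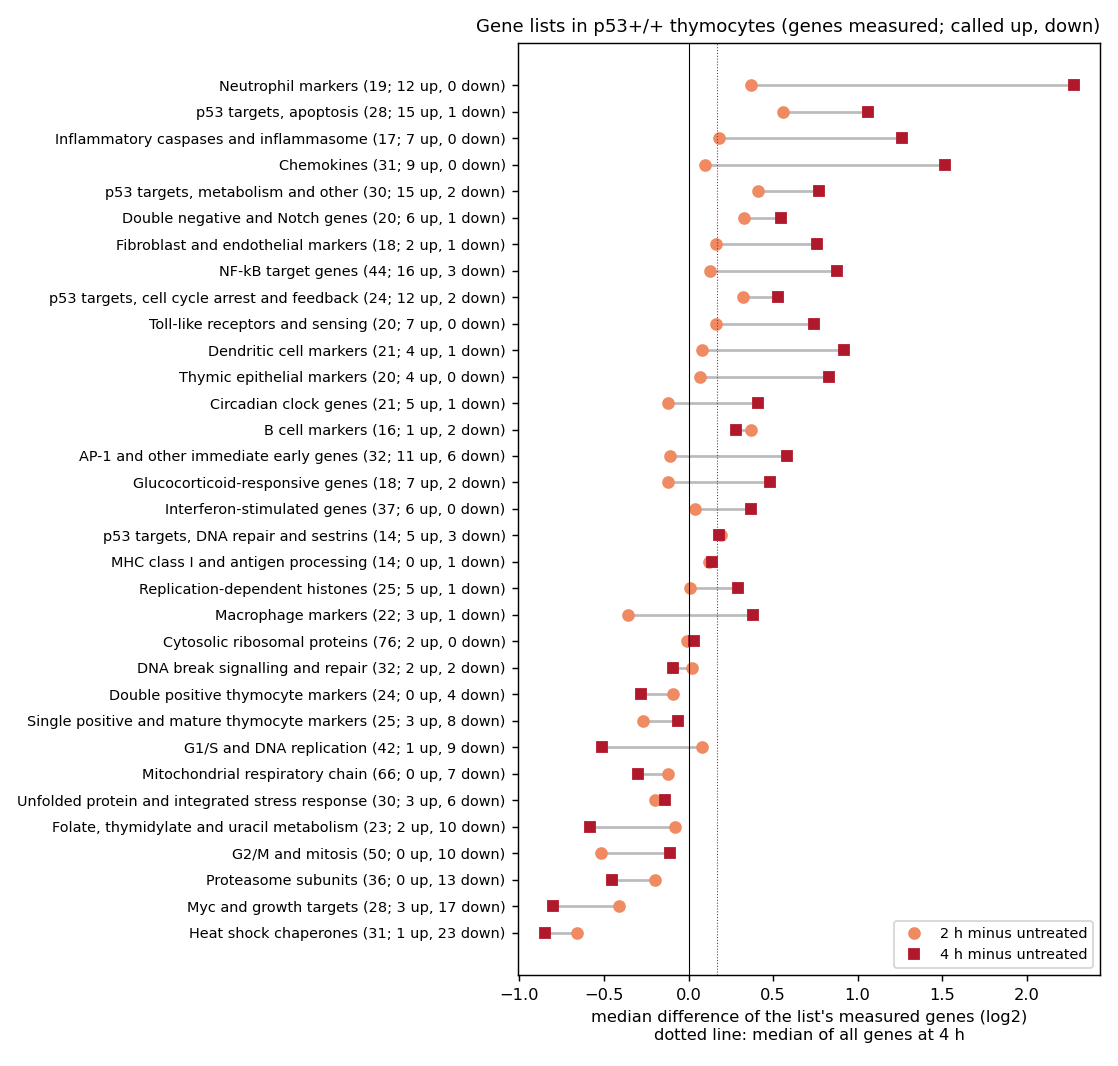
The median log2 difference from untreated over the measured genes of each list drawn at 2 h (circles) and 4 h (squares), in p53+/+ thymocytes, ordered by the list's median change. Lists with fewer than 14 measured genes are not drawn. Neutrophil markers reached 2.28 at 4 h against 0.37 at 2 h, p53 apoptosis targets 1.06 against 0.56, and heat shock chaperones -0.85 against -0.66.

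Genes for entry into S phase and for DNA replication were lower at 4 h. Of 42 measured members 9 fell and 1 rose, with a median of -0.19 (0.08 at 2 h and -0.51 at 4 h), and 8 were lower at 4 h than at 2 h, against 0.292% of all genes. Without the 4 h array 2 rose and none fell, without the 2 h array 17 fell, and without the second untreated array 2 fell. Mcm2, a subunit of the replicative helicase, was at 2.73 at 2 h and 1.74 at 4 h, against 2.93 and 3.11 untreated, and its partner Mcm6 was at 5.51 at 2 h and 4.33 at 4 h, against 5.93 and 6.02 untreated. For both the 2 h array was nearer to the untreated ones than the 4 h array was, and the 4 h level of Mcm6 relative to 2 h was -1.17 ± 0.29 (adjusted p = 0.0409, and 0.0134 for Mcm2). Ccne1 (cyclin E1) was at 2.58 at 2 h and 1.69 at 4 h, against 2.68 and 2.71 untreated and was -0.89 ± 0.20 at 4 h relative to 2 h (adjusted p = 0.0249).

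Genes of folate, thymidylate and uracil metabolism were also lower at 4 h: 6 of 23 were lower at 4 h than at 2 h, against 0.292% of all genes. Against untreated, 10 fell and 2 rose over both hours, with a median of -0.28 (-0.08 at 2 h and -0.58 at 4 h). Of the 10, 3 passed without the 4 h array. Shmt2, the mitochondrial serine hydroxymethyltransferase that feeds 1-carbon units, was at 1.00 at 2 h and -0.09 at 4 h, against 1.66 and 1.70 untreated (-1.23 ± 0.12; adjusted p = 2.4e-07). Its cytosolic form Shmt1 was at -1.63 at 2 h and -3.63 at 4 h, against -0.86 and -0.89 untreated, -2.01 ± 0.37 at 4 h relative to 2 h (adjusted p = 0.00616). Both were lower at each later hour. Another Shmt1 probe had a change of -0.36 ± 0.22 against untreated (adjusted p = 0.242), where the brightest had -1.76 ± 0.26, so the size is uncertain. Ung, the glycosylase that removes uracil from DNA, was at 0.41 at 2 h and -1.01 at 4 h, against 1.29 and 1.38 untreated (-1.63 ± 0.20; adjusted p = 5.31e-06), and Atic, which completes purine synthesis, was at 0.63 at 2 h and -0.21 at 4 h, against 1.33 and 1.22 untreated (-1.07 ± 0.13; adjusted p = 6.6e-06). Cad, the enzyme that starts pyrimidine synthesis, was higher, at 2.60 at 2 h and 2.12 at 4 h, against 1.66 and 1.73 untreated (0.67 ± 0.14; adjusted p = 0.00154).

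Mitotic genes had their lowest levels at 2 h. Of 50 measured members 10 fell and none rose, against 9.84% of all genes that fell, with a median of -0.33 that was -0.52 at 2 h and -0.11 at 4 h. Without the 2 h array 2 fell, without the 4 h array 12, and without the first and the second untreated array 5 and 4. Ccnb1 (cyclin B1), which drives entry into mitosis, was at -0.44 at 2 h and 0.53 at 4 h, against 1.78 and 1.79 untreated. It was lowest at 2 h and below untreated at both hours (-1.74 ± 0.24; adjusted p = 2.5e-05). Cenpf, a kinetochore protein, was at 1.80 at 2 h and 2.83 at 4 h, against 3.27 and 3.44 untreated (-1.04 ± 0.21; adjusted p = 0.00152), and Plk1, the mitotic polo-like kinase, was at 2.02 at 2 h and 2.75 at 4 h, against 3.25 and 3.29 untreated (-0.89 ± 0.22; adjusted p = 0.00611). The differences between the hours did not pass for these 3 (adjusted p = 0.16, 0.0836 and 0.258), and the 2 list members that did were Aurka and Pimreg, which were higher at 4 h, as 1.3% of all genes were (0.92 ± 0.22 and 1.42 ± 0.25; adjusted p = 0.0367 and 0.00399) and were singled out after their values were seen. Bub3, a spindle checkpoint protein, was at 4.44 at 2 h and 4.41 at 4 h, against 4.86 and 4.79 untreated (-0.41 ± 0.09; adjusted p = 0.00343), with the hours alike.

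**Figure D4:**
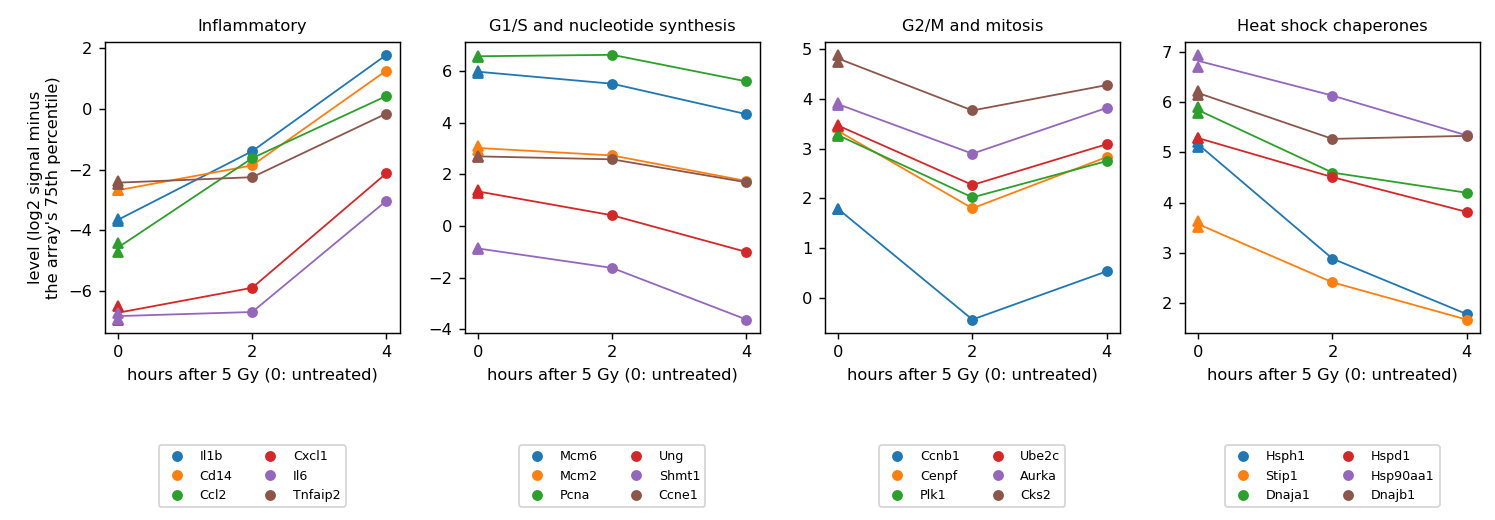
Levels (y axis, log2 signal minus the 75th percentile) against hours after 5 Gy (x axis, 0 being the 2 untreated arrays, triangles) for 6 genes in each of 4 groups, picked to show each group's course, in p53+/+ thymocytes. Il1b reached -1.39 at 2 h and 1.79 at 4 h, Mcm6 5.51 and 4.33, Ccnb1 -0.44 and 0.53, and Hsph1 2.89 and 1.79.

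Heat shock chaperones, which fold proteins, fell in 23 of 31 cases and rose in 1, against 9.84% of all genes that fell. The median was -0.80 (-0.66 at 2 h and -0.85 at 4 h), and 16 fell without the 4 h array and 17 without the second untreated array. Hsph1 (Hsp110), a nucleotide exchange factor for Hsp70, was at 2.89 at 2 h and 1.79 at 4 h, against 5.11 and 5.21 untreated (-2.82 ± 0.36; adjusted p = 7.27e-06). Both irradiated arrays were far below both untreated ones, and the 4 h array was the lower. Dnaja1, an Hsp40 cochaperone, was at 4.60 at 2 h and 4.20 at 4 h, against 5.78 and 5.90 untreated (-1.44 ± 0.17; adjusted p = 3.85e-06). Hsp90ab1, the constitutive Hsp90, was at 5.58 at 2 h and 5.01 at 4 h, against 6.22 and 6.41 untreated (-1.02 ± 0.13; adjusted p = 6.71e-06), and Fkbp4, its cochaperone for steroid receptors, was at 1.78 at 2 h and 0.95 at 4 h, against 2.71 and 2.82 untreated (-1.40 ± 0.19; adjusted p = 1.35e-05). In Cct3, a subunit of the TRiC chaperonin, the 4 h array was lower than the 2 h array (-0.77 ± 0.19; adjusted p = 0.0334), and in Chordc1 the hours were alike at 2.12. The member that rose was Hspb1 (Hsp25), a small heat shock protein singled out after its value was seen, by 1.70 ± 0.43 (adjusted p = 0.00741).

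Growth genes of the Myc list fell in 17 of 28 cases and rose in 3, with a median of -0.67, and 9 fell without the 4 h array. Gnl3 (nucleostemin) was at 0.44 at 2 h and -0.33 at 4 h, against 1.34 and 1.22 untreated (-1.23 ± 0.13; adjusted p = 6.37e-07). Srm, the spermidine synthase, was at 0.78 at 2 h and -0.36 at 4 h, against 1.91 and 1.92 untreated (-1.70 ± 0.21; adjusted p = 6.84e-06). Nucleolar and polymerase I genes went the same way, with Rrs1, Nop58 and Polr1b at -1.03 ± 0.14, -1.02 ± 0.16 and -0.89 ± 0.14 (adjusted p = 1.51e-05, 0.000123 and 8.97e-05). Myc itself, singled out after its value was seen, was at 0.16 at 2 h and 0.18 at 4 h, against 1.47 and 1.91 untreated (-1.52 ± 0.45; adjusted p = 0.019). The members that rose, likewise singled out, were Mxd1 and Mxi1, which oppose Myc (0.58 ± 0.18 and 0.34 ± 0.12; adjusted p = 0.0206 and 0.04), and Cad.

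Housekeeping complexes changed less. Proteasome subunits fell in 13 of 36 cases, against 9.84% of all genes, with a median of -0.33, but the count was 2 with quantile normalization, 32 with median centring, 1 without the 4 h array, 6 without the first untreated array and 4 without the second. Psmd7, a lid subunit, was at 2.03 at 2 h and 1.81 at 4 h, against 2.46 and 2.56 untreated (-0.59 ± 0.11; adjusted p = 0.000452), with another of its probes of opposite sign. Of 66 respiratory chain genes 7 fell, near the share of all genes, with a median of -0.21, and 58 fell with median centring. Cycs (cytochrome c) was at 4.55 at 2 h and 3.99 at 4 h, against 4.99 and 4.96 untreated (-0.71 ± 0.14; adjusted p = 0.00152). Of 76 cytosolic ribosomal protein genes 2 rose and none fell, with a median of 0.00, and with median centring none rose and 23 fell.

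Stress and hormone-responsive lists were mixed. In the unfolded protein and integrated stress response list 3 of 30 rose and 6 fell: Asns (asparagine synthetase), a target of Atf4, was at -0.51 at 2 h and -0.44 at 4 h, against -2.06 and -1.91 untreated (1.51 ± 0.22; adjusted p = 4.27e-05), and Hspa5 (BiP), the chaperone of the endoplasmic reticulum, was at 3.91 at 2 h and 4.13 at 4 h, against 4.45 and 4.51 untreated (-0.46 ± 0.14; adjusted p = 0.021). Eif2ak3 (PERK), a sensor of unfolded protein, was at 2.80 at 2 h and 4.61 at 4 h, against 2.18 and 2.31 untreated, higher at 4 h by 1.81 ± 0.29 (adjusted p = 0.00197). Of 18 glucocorticoid-responsive genes 7 rose and 2 fell, with a median of 0.30 that turned to -0.09 with median centring, and without the 4 h array none rose. Mt2, a metallothionein, was at 0.42 at 2 h and 2.36 at 4 h, against 0.03 and 0.13 untreated (1.94 ± 0.30 between the hours; adjusted p = 0.0015), and Nr3c1, the glucocorticoid receptor, was at 3.01 at 2 h and 3.13 at 4 h, against 3.86 and 3.88 untreated (-0.80 ± 0.18; adjusted p = 0.00328). Among 21 clock genes 5 rose and 1 fell, led by Dbp, a circadian output factor, at 3.14 at 2 h and 2.84 at 4 h, against 2.01 and 2.18 untreated (0.89 ± 0.14; adjusted p = 7.34e-05), and the list's median of 0.38 was -0.01 with median centring and -0.03 with quantile normalization. Time of day at sampling is not given in the labels.

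Of 25 replication-dependent histone genes 5 rose and 1 fell, with a median of 0.15 that turned to -0.24 with median centring. These transcripts resemble each other and may share probe signal. H2ac8 was at -2.01 at 2 h and -1.30 at 4 h, against -3.27 and -3.13 untreated (1.55 ± 0.24; adjusted p = 8.75e-05). Of 32 genes of DNA break signalling and repair 2 rose and 2 fell, with a median of -0.03. Brca2, which acts in repair by homologous recombination, was at 0.71 at 2 h and 0.44 at 4 h, against -0.12 and -0.07 untreated (0.67 ± 0.17; adjusted p = 0.0063), and Parp1, the sensor of strand breaks, was at 2.00 at 2 h and 1.35 at 4 h, against 2.14 and 2.15 untreated (-0.47 ± 0.10; adjusted p = 0.00202).

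Markers of thymocyte stages moved in part. Among 24 markers of the CD4 and CD8 positive stage 4 fell and none rose (median -0.18), and no call remained without the 4 h array or without either untreated array. Their summed signal was 1640 at 2 h and 1690 at 4 h, against 1620 to 1760 untreated. Among 25 markers of mature thymocytes 8 fell and 3 rose, and the sum was 377 and 342, against 444 to 451. Cd69, a mark of recent selection, was at 1.79 at 2 h and 1.83 at 4 h, against 2.45 and 2.53 untreated (-0.68 ± 0.14; adjusted p = 0.00181). Nkg7, a cytotoxic granule protein, was higher, at 3.05 at 2 h and 3.21 at 4 h, against 1.59 and 1.75 untreated (1.46 ± 0.24; adjusted p = 0.000147).

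Genes of the CD4 and CD8 negative stage and of Notch rose in 6 of 20 cases and fell in 1, with summed signals of 19.4 and 17.6, against 10.4 to 10.6. Notch1, the receptor that commits cells to the T lineage, was at 2.01 at 2 h and 1.59 at 4 h, against -0.06 and -0.20 untreated (1.94 ± 0.35; adjusted p = 0.000505), and Notch3 was at 2.24 at 2 h and 2.07 at 4 h, against 0.80 and 0.84 untreated (1.33 ± 0.24; adjusted p = 0.000404). Erg, a factor of early progenitors, was at -0.76 at 2 h and -0.37 at 4 h, against -3.51 and -3.19 untreated (2.78 ± 0.38; adjusted p = 1.89e-05). All 3 genes were high on both irradiated arrays. Hes1, a Notch target, rose by 1.51 ± 0.40 (adjusted p = 0.0096).

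Markers of other cells differed between single arrays. Summed erythroid markers were 103 at 2 h and 21.8 at 4 h, against 140 on each untreated array, with 2 of 9 called down. Thymic epithelial markers summed to 139 and 296, against 271 to 298, with 4 of 20 called up and none without either untreated array or without the 4 h array. Macrophage markers summed to 59 and 103, against 63.4 to 63.9, and dendritic markers to 55.5 and 93, against 54.7 to 55.5. Of these, 3 of 22 and 4 of 21 were called up, against 13.6% of all genes, and 1 in each list was called down. The members called down were Slc40a1 in the macrophage list and Siglech in the dendritic list (-0.95 ± 0.29 and -1.19 ± 0.38; adjusted p = 0.0207 and 0.0265). Marco, a scavenger receptor of macrophages, was at -1.34 at 2 h and -0.86 at 4 h, against -3.38 and -3.29 untreated (2.23 ± 0.48; adjusted p = 0.00225). B cell markers summed to 55.8 and 45.4, against 62 to 66.2, and Ighm (named Igh-6 in the files), the IgM heavy chain, was at 5.44 at 2 h and 5.01 at 4 h, against 5.67 and 5.76 untreated (-0.49 ± 0.13; adjusted p = 0.00825). NK markers summed to 5.4 and 5.19, against 7.62 to 7.93, with Gzma at 1.33 at 2 h and 0.84 at 4 h, against 2.25 and 2.32 untreated (-1.20 ± 0.28; adjusted p = 0.004). Fibroblast and endothelial markers summed to 3.72 and 4.84, against 2.73 to 2.79, with Eng (endoglin) at 0.03 at 2 h and 0.17 at 4 h, against -1.66 and -1.55 untreated (1.71 ± 0.22; adjusted p = 8.95e-06). Called members also went both ways in the last 3 lists. Of B cell markers 1 of 16 rose and 2 fell, of NK markers 1 of 11 rose and 1 fell, and of fibroblast and endothelial markers 2 of 18 rose and 1 fell. Against the members shown, Cr2 rose by 1.29 ± 0.35 and Gzmb by 1.22 ± 0.31, and Cdh5, near background, had a change of -1.46 ± 0.50 (adjusted p = 0.011, 0.00794 and 0.0402). The part of these cells in other results was not tested.

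Of the genes that fell most, 8 of 15 passed without the 4 h array and 11 of 15 without each of the other 3 arrays. Beside Hsph1 these included Hrh3, a histamine receptor, at -2.49 at 2 h and -2.44 at 4 h, against -0.46 and -0.30 untreated (-2.08 ± 0.26; adjusted p = 8.04e-06), which passed in each case. Olig3, a neural transcription factor, was at -3.61 at 2 h and -2.79 at 4 h, against -1.07 and -0.88 untreated (-2.22 ± 0.55; adjusted p = 0.00614), and Smim5, a small membrane protein, was at -2.84 at 2 h and -2.72 at 4 h, against -0.61 and -0.73 untreated (-2.11 ± 0.50; adjusted p = 0.00432). Both were low on both irradiated arrays. Klk1b5, a kallikrein, and Adamtsl2, a matrix protein, had changes of -1.88 ± 0.35 and -1.87 ± 0.33 (adjusted p = 0.000672 and 0.00042). Bcat1, the cytosolic aminotransferase of branched-chain amino acids and a known Myc target, was at -3.79 at 2 h and -4.71 at 4 h, against -1.58 and -1.56 untreated (-2.68 ± 0.56; adjusted p = 0.00186), and it, Psma8 (-2.10 ± 0.52; adjusted p = 0.00644), Prag1 (-1.85 ± 0.41; adjusted p = 0.00304) and Rps6kl1 (-1.96 ± 0.34; adjusted p = 0.000348) did not pass without the 4 h array. By its brightest probe Rps6kl1 was at -0.32 at 2 h and -3.62 at 4 h, against -0.17 and 0.14 untreated, a fall seen at 4 h (-3.30 ± 0.48 relative to 2 h; adjusted p = 0.0012). Another probe of it had a change of -0.32 ± 0.66 against untreated (adjusted p = 0.755), so the size is uncertain.

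Inppl1, Asb4 and Fabp5 had adjusted p from 0.0138 to 0.0374 and each lost its call without at least 2 of the 4 arrays. Genes lower at 4 h than at 2 h also included Ampd1, an AMP deaminase, at 0.40 at 2 h and -1.63 at 4 h, against 0.70 and 0.86 untreated (-2.04 ± 0.25; adjusted p = 0.000201), and Egfl7, the host gene of a microRNA, at -1.22 at 2 h and -2.63 at 4 h, against -0.96 and -0.97 untreated (-1.41 ± 0.28; adjusted p = 0.0105). Fam167a and Lbh were lower at 4 h than 2 h as well (-1.90 ± 0.41 and -1.60 ± 0.38; adjusted p = 0.0186 and 0.0315), with 2 h above untreated.

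The response was set against that of p53-/- thymocytes to ask which changes differed in cells without p53. The difference of the responses was called for 1093 genes, higher in p53+/+ for 652 (3.18%) and lower for 441 (2.15%). Higher ones were 59.7% of these, 47.8% in the authors' table and 18.9% with median centring. The count ranged from 305 to 2314 when 1 of the 8 arrays was left out, with 305 and 2314 without the p53+/+ 4 h and 2 h arrays, 352 without the p53-/- 2 h array, and 452 to 727 without single untreated arrays. Of the 2787 genes that rose, 620 rose by more than in p53-/-, and of the 2021 that fell, 364 fell by more.

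Phlda3 had a change of -0.04 in p53-/-, where its levels were -0.62 at 2 h and -0.91 at 4 h, against -0.79 and -0.65 untreated, and the difference of responses was 5.23 ± 0.20 (adjusted p = 5.73e-14). Bbc3 had a change of 0.03 there, with levels of 2.54 at 2 h and 2.54 at 4 h, against 2.41 and 2.62 untreated, and differed by 3.26 ± 0.17 (adjusted p = 1.02e-11). The changes of both in p53-/- were within their standard errors of 0. Cdkn1a had a change in p53-/- of 1.00, with levels of -2.55 at 2 h and -2.15 at 4 h, against -3.30 and -3.40 untreated, and still differed by 3.55 ± 0.47 (adjusted p = 3.43e-05). Mdm2 differed by 0.71 ± 0.23, which did not pass (adjusted p = 0.0728).

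Among inflammatory genes, 6 of 44 NF-kB targets and 2 of 31 chemokines responded more in p53+/+, against 3.18% of all genes. Il1b had a change of 1.54 in p53-/-, with levels of -3.21 at 2 h and -0.62 at 4 h, against -3.33 and -3.59 untreated, and differed by 2.31 ± 0.58 (adjusted p = 0.0223). Ccl2 had a change of 2.31 and differed by 1.67 ± 0.57 (adjusted p = 0.091). None of the 19 neutrophil markers had a called difference.

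Lists with more falls than rises were counted whole, whether or not a member fell in p53+/+. A lower response in p53+/+ than in p53-/- was called for 17 of 42 replication genes, of which 9 fell in p53+/+ by the test. The counts were 14 of 31 heat shock chaperones and 13 of 28 Myc list genes, against 2.15% of all genes, and none of 50 mitotic genes. Part of such a difference can be a rise in p53-/-: Ccne1 had a change of 0.74 there and differed by -1.30 ± 0.20 (adjusted p = 0.000344). Dnaja1 had a change of -0.20 and differed by -1.24 ± 0.25 (adjusted p = 0.00384), and Srm had a change of -0.10 with a difference of -1.60 ± 0.30 (adjusted p = 0.00249). Ccnb1 had a change of -0.90 in p53-/-, with a difference of -0.84 ± 0.34 (adjusted p = 0.15).

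**Figure D5:**
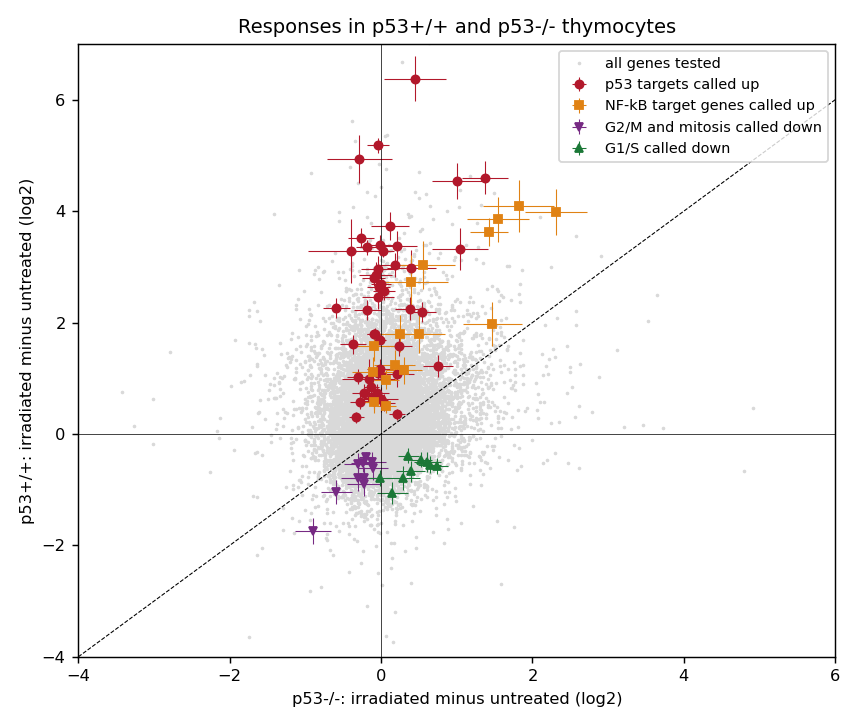
Each point is a gene, with its irradiated minus untreated log2 change in p53-/- thymocytes on the x axis and in p53+/+ thymocytes on the y axis, and colours mark gene lists as keyed (10 genes lie outside the axes). p53 targets such as Phlda3 (5.18 in p53+/+, -0.04 in p53-/-) lie high near the vertical axis, and Ccl2 (3.98 and 2.31) lies nearer the diagonal.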

How the data were processed

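RNA from thymus was labelled with Cy3 and hybridised to 1-colour Agilent mouse arrays, per the labels' protocols. The deposited files are scanner output, spot intensity from Agilent Feature Extraction (9.5.3 per the submitters' processing notes; the file headers say 9.5.3.1), with probes placed on build mm7. Processed intensity was background-corrected and not scaled between arrays, per the file headers. The authors also deposited a table of log2 values, with scale and centring not stated in the sources used here. Its column medians were 6.21 to 6.22, it correlated with the scanner levels at 0.959 to 0.981, and it served as an alternative.

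Each processed intensity was divided by its array's 75th percentile and put on the log2 scale. Flagged spots (0.223%) were set to missing, 41174 probes were read, and those measurable above background on 4 or more of 32 arrays were kept. Each gene was read from its brightest probe by mean. Accessions gave 22951 probes a current symbol and updated 5141. Of 99 other probes of called named genes, 92 had the same sign, 63 passed with that sign and none passed in the opposite direction. The number of arrays limits the precision.

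Tests were two-sided contrasts in limma 3.58.1 (R 4.3.3) on all 32 arrays in 12 groups with no block, with Benjamini-Hochberg adjustment at 0.05. Every adjusted p in the text is limma's, and errors after ± are standard errors. In data simulated for 20479 genes with 200 changed, irradiated minus untreated called 100, 8 of them falsely, and recovered 13.4% of the genes changed 1.5-fold, 49.3% at 2-fold and 75.8% at 4-fold. Every simulated array, the lone ones included, was drawn with 1 spread per gene, so the simulation cannot check that assumption. Its share of changed genes was also far below the 23.4% called in the data, so its rates need not hold for them.

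The members and lists were chosen with earlier results of these data known, and lists are described by counts and medians. Named were a fixed set of p53 genes with Xist, up to 15 that rose and 15 that fell most, up to 8 in each direction between the hours, up to 6 called members of a list, and p53 targets not called, with genes named only by a clone or accession identifier left out of the rankings. The results of a few of these genes are not reported here. Alternatives were other background correction, scaling and filters, the authors' table, slide and Xist terms, X and Y genes left out, fewer arrays, and each array left out. Figures were drawn with matplotlib 3.10.9 under Python 3.11.15 (pandas 2.3.3), with data.table (1.17.8) and jsonlite 2.0.0 as readers.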

Additional observations from a re-analysis of the deposited data

Results flagged for a closer look

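Among the 38 genes always named or ranked by size, 24 had a response that differed between p53+/+ and p53-/- thymocytes by the contrast of the responses (limma, all 32 arrays), and this difference is what brought them here. Of all genes tested 3.18% were called higher in p53+/+ and 2.15% lower. Most of the 38 were ranked by their change in p53+/+, which is part of the difference, so a high count and large differences were favoured in advance. The values that follow are log2 differences, p53+/+ minus p53-/-. Of p53 targets, Plk2 differed by 5.94, Phlda3 by 5.23, Cpt1c by 5.22, Pmaip1 by 3.61, Cdkn1a by 3.55, Bbc3 by 3.26, Zfp365 by 3.23, Ccng1 by 2.90, Bax by 2.52 and Fas by 0.87. Of other genes that rose, Tnfsf4 differed by 6.45, Robo3 by 4.87, Dglucy by 4.69, Zfp750 by 4.52, Cd80 by 3.74 and Mybpc2 by 2.83. H60 differed by 9.29, Ltk by 4.82 and St6galnac2 by 4.43, and for these the untreated p53+/+ arrays were below all P72 and R72 arrays while the irradiated ones lay among them. Of genes that fell, Hrh3 differed by -1.41, Hsph1 by -1.88, Rps6kl1 by -2.09, Prag1 by -2.31 and Bcat1 by -3.07. Untreated p53+/+ arrays were not well above background for Tnfsf4, Cpt1c, Zfp365, Zfp750, H60 and Ltk, nor was any p53-/- array for Cpt1c and H60, so these 6 differences are fitted values that rest on dim signal and give no measured size. The adjusted p of the 24 ranged from 5.73e-14 for Phlda3 to 0.0322 for Hsph1.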

How the results depend on the processing

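Counts for irradiated minus untreated (4808), 4 h minus 2 h (327) and the difference of responses (1093) depended on the settings. They were 955, 19 and 213 with normexp, whose corrected signal on 4 P72 and R72 arrays had a 5th percentile of 115 or more against at most 64.5 elsewhere, and 3131, 114 and 994 without those 4 arrays, an alternative chosen after seeing the data. Median centring gave 7914, 698 and 2047, no filter 213 for the hours and 636 for the difference, the slide as a fixed block 476 for the difference and as a random block 698 for the hours. The 4 arrays alone called 0 (4165 at an unadjusted p under 0.05), and the 8 p53+/+ and p53-/- arrays alone gave 191 for the difference. Leaving out 1 array gave 1196 to 5953 for irradiated minus untreated and 305 to 2314 for the difference. Restricting to genes well above background on all 4 p53+/+ arrays, also chosen after seeing the data, gave 3914, 311 and 1135, and quantile normalization 3658, 372 and 963. Of 198 named genes that passed, 166 passed with quantile normalization, 165 in the authors' table, 164 with median centring, 176 with the fixed slide block, 188 with the Xist covariate, 181 without the 2 h array, 95 without the 4 h array, and 155 and 145 without the first and second untreated array. Signs turned for Cdh5 (0.04 with normexp) and when 1 array, the 4 h one, was left out. Over single arrays left out, changes ranged from -0.45 to 4.39 for Ifi202b, -0.43 to 3.82 for Trem1, -0.17 to 2.15 for Mefv and -0.02 to 1.15 for Irak2, and the Ampd1 difference of responses from -1.95 to 0.09. The causes were not tested. No paired analysis was possible because each irradiated p53+/+ group held 1 array. Signal near background limits genes such as Zfp365 and Cxcl1, whose sizes against untreated are given as bounds. It also limits genes such as Robo3, Cd80, Mybpc2, Ak1, Ier3, Ccn1, Ccl2, Ccl7 and Ccl3. These were well above background on 1 of the 2 untreated arrays, so their sizes are uncertain.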
